A study of Homo sapiens with 4 samples.

Results

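The genes examined here encode MHC class II molecules, the machinery that loads them with peptide, and CIITA, which switches the class on. Members were chosen by name from the deposited expression table, and all 10 names were found among 55764 listed genes. They are the antigen-presenting chains HLA-DRA, HLA-DRB1, HLA-DRB5, HLA-DPA1, HLA-DPB1 and HLA-DQB1, the peptide editor chains HLA-DMA and HLA-DMB, the invariant chain CD74, and CIITA. The study sequenced RNA in bulk from TE5, a cell line from a human squamous carcinoma of the oesophagus. In 2 libraries (the ETS1 group, genotype label ETS1 Overexpression) the cells had received a CMV vector for the transcription factor ETS1, and in 2 (the Control group, genotype label WT) the backbone. The protocol describes lentiviral infection. No other agent was named for either group. Neither group is described as a clone or as a pool, and nothing says that libraries 1 and 2 of a group came from separate infections or cultures. Their p-values therefore measure only the spread between these libraries, which may be technical.

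Class II molecules are pairs of an alpha and a beta chain that show peptides from endosomes to CD4+ T cells. CD74 guards the peptide groove during transport, HLA-DM (the product of HLA-DMA and HLA-DMB) exchanges the remnant of CD74 for peptide, and HLA-DO restrains HLA-DM. Professional antigen-presenting cells make them constantly, while epithelial cells usually do so after interferon-gamma. CIITA does not bind DNA. It docks on RFX, NF-Y and CREB family proteins assembled on a conserved promoter module whose parts are called the X box and the Y box.

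The promoter module is shown for HLA-DRB1, HLA-DRB5, HLA-DQB1 and HLA-DMA, where it was found. HLA-DMB, which held an X box match but no Y box match at a like distance, is shown beside them. Members that moved can thus be compared with 1 that did not. RefSeq promoter windows on GRCh38.p14, running from 250 bases before to 50 bases after a gene start, were matched for 8 of the 10 members, all but HLA-DRA and CIITA. They were searched on both strands for ACNGATG, part of the X box core, and for ATTGG, the Y box core, which reads CCAAT on the other strand. The X letters were chosen after these windows had been seen, so the matches in them are a description. Capitals mark the matches, which do not overlap, and sequences run 5′ to 3′ on the gene's strand. Positions are chr6:32589882-32589931 for HLA-DRB1, chr6:32530365-32530414 for HLA-DRB5, chr6:32666709-32666782 for HLA-DQB1, chr6:32953134-32953214 for HLA-DMA and chr6:32941038-32941120 for HLA-DMB, all on the minus strand.
HLA-DRB1: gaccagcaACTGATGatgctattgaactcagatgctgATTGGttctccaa
HLA-DRB5: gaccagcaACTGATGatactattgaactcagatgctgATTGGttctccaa
HLA-DQB1: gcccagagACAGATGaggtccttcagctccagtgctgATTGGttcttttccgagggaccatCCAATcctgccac
HLA-DMA: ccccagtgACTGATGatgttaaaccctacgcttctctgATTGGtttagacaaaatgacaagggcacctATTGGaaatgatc
HLA-DMB: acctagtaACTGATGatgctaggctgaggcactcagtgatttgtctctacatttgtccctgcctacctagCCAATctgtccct

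In HLA-DRB1, HLA-DRB5 and HLA-DQB1, 22 bases separated the X match from the next Y match, and in HLA-DMA 23 bases did. HLA-DMB had an X match, but its only Y match lay 55 bases on and on the other strand. Of 35116 promoter windows of the same length, 7.65% held the X pattern and 34.6% held the Y pattern. In 40 (0.114%) X then Y stood on 1 strand with 15 to 30 bases between them. Those 40 include HLA-DRB1, HLA-DRB5, HLA-DQB1 and HLA-DMA. The gap limits take in their 22 and 23 bases, and the X letters were chosen after their windows had been seen. The share is therefore a description and does not measure rarity. Neither of the windows for HLA-DPA1 held a match. The CD74 window held 1 X and 1 Y match, 149 bases apart. The HLA-DPB1 window held Y matches alone and is shown for contrast (chr6:33075883-33075927, plus strand).
HLA-DPB1: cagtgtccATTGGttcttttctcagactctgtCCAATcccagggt
The core letters that ETS factors bind, GGAA, occurred 2 to 6 times in each matched window, and 95.5% of all windows held them. These are letters in a window and were not tested as binding sites.

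Expression is given as FPKM, fragments scaled to gene length and to library total. Whole reads were recovered from the steps in the FPKM values of the 16652 genes in the authors' comparison table. They amounted to between 40356716 and 57269976 per library, more in both ETS1 libraries than in both controls. Reads of genes outside it, such as HLA-DRA, CD74 and CIITA, are not in these totals. The chi-square between the libraries of a group, on recovered reads scaled by library total, averaged 3.95 per gene for Control and 3.98 for ETS1. Genes with many reads weigh most in such a mean. Whether the libraries of a group were repeats of 1 library was not tested. ETS1 itself had 0.491 and 0.509 FPKM in the controls and 1.84 and 1.87 FPKM in the ETS1 libraries, in the labelled direction. Genes were tested with limma on log2(FPKM + 1) where FPKM averaged at least 1 over the 4 libraries, with Benjamini-Hochberg adjustment over all 14306 genes tested and a threshold of 0.05. An exact permutation test of 2 libraries against 2 cannot give a two-sided p below 0.333.

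The beta chain genes of HLA-DR and the HLA-DP alpha chain gene were the members that rose most among those tested, HLA-DMA rose less, and HLA-DQB1 least. CIITA, CD74 and HLA-DRA, the alpha chain that every DR beta chain needs, stayed below 0.6 FPKM in every library. Of the 10 members 5 passed the filter, and limma called all 5 higher and 0 lower in the ETS1 libraries, where 30.7% of all tested genes were called higher and 28.4% lower. The control values of these 5 were all above the filter. With no filter limma tested all 10 members and called 5 higher and 0 lower, where 10.3% of genes were called higher and 9.24% lower. HLA-DPB1 was among these 5 and HLA-DQB1 was not. The median log2 change over all 10 members was 0.40 with no filter, beside 0.010 over all genes, and over the 5 that passed the filter it was 0.86, beside 0.016. Over all 10 members, 7 had ETS1 values that lay above both control values, 0 lay below and 3 overlapped, where 31.7% of the 35055 genes with any FPKM lay above and 24.2% below. In bulk RNA, more cells that express a gene and more RNA per cell cannot be told apart.

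**Figure D1:**
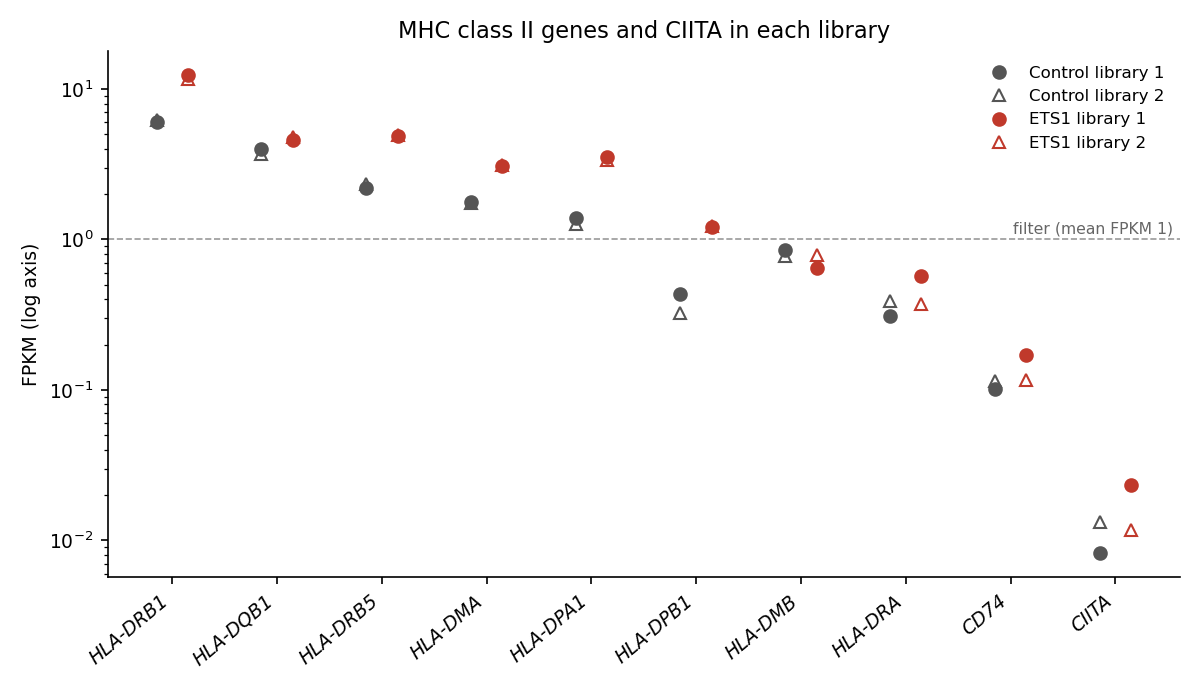
FPKM on a log axis for each member in the 4 libraries, with circles for library 1, triangles for library 2, grey for Control and red for ETS1, and a dashed line at an FPKM of 1. The ETS1 points of HLA-DRB1, HLA-DRB5, HLA-DPA1, HLA-DPB1 and HLA-DMA sit clear above their controls, while those of HLA-DMB, HLA-DRA and CIITA interleave with them.

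HLA-DRB1 encodes the common DR beta chain (chromosome 6, 32578769 to 32589848, minus strand, GENCODE 29 on GRCh38). It was the most abundant member, with 6.04 and 6.22 FPKM in the controls and 12.4 and 11.7 FPKM in the ETS1 libraries. The reads behind these values were 299 and 337 against 875 and 811. Both ETS1 values were about double the controls, at a ratio of mean FPKM of 1.97, and the groups did not overlap. In limma its log2 change was 0.87 (standard error 0.043, adjusted p 0.000482). At 9.10 FPKM over all libraries its level stood at percentile 61.1 of the tested genes.

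HLA-DRB5 is a further DR beta gene carried by only some human haplotypes (chromosome 6, 32517343 to 32530287). It had 2.19 and 2.32 FPKM in the controls and 4.87 and 4.96 FPKM in the ETS1 libraries, without overlap. Its log2 change of 0.86 had a limma adjusted p of 0.000516. The ratio of HLA-DRB1 to HLA-DRB5 FPKM was 2.76 and 2.68 (Control) against 2.56 and 2.36 (ETS1), so the values of these genes moved by similar factors. Reads of these genes are hard to separate. In their reference transcripts, 102 of the 1180 stretches of 50 bases from HLA-DRB1 (8.64%) also occur in HLA-DRB5, and how the authors treated reads with more than 1 match is not stated. TE5 cells may also carry alleles that differ from the reference, so the split between HLA-DRB1 and HLA-DRB5 is uncertain and whether TE5 carries HLA-DRB5 was not tested.

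HLA-DRA encodes the alpha chain of HLA-DR (chromosome 6, 32439842 to 32445046, plus strand). Its FPKM was 0.310 and 0.390 in the controls and 0.573 and 0.373 in the ETS1 libraries, from 16, 22, 42 and 27 reads. ETS1 library 1 was the highest, and ETS1 library 2 fell between the controls. It was under the filter. With no filter limma gave a log2 change of 0.12 and an adjusted p of 0.472. Per length, HLA-DRB1 stood 19.5 and 16.0 times above HLA-DRA in the controls and 21.7 and 31.3 times above it in the ETS1 libraries. The beta and alpha transcripts of HLA-DR were thus far from equal in all 4 libraries.

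The HLA-DP pair rose on both chains. HLA-DPA1, the alpha chain gene (chromosome 6, 33064569 to 33080775, minus strand), had 1.38 and 1.26 FPKM in the controls and 3.54 and 3.36 FPKM in the ETS1 libraries, from 322 and 321 against 1168 and 1096 reads. The ETS1 values were 2.61 times the controls on average, and limma gave a log2 change of 0.94 (standard error 0.056, adjusted p 0.000608). HLA-DPB1, the beta chain gene (chromosome 6, 33075926 to 33087201, plus strand), had 0.433 and 0.324 FPKM in the controls and 1.20 and 1.22 FPKM in the ETS1 libraries. Its mean FPKM of 0.795 was under the filter. With no filter limma gave a log2 change of 0.68 and an adjusted p of 0.0153. This scale understates change at low levels. On recovered reads (50 and 41 against 197 and 198), limma's voom, a test for read counts, gave HLA-DPB1 a log2 change of 1.66 (95% interval 1.23 to 2.10). This fit was added after seeing the data and took genes with a mean of at least 0.5 FPKM, a lowered filter that HLA-DPB1 passed only through its ETS1 values, so its size is given as a description. The ratio of HLA-DPA1 to HLA-DPB1 FPKM was 3.20 and 3.89 in the controls and 2.95 and 2.75 in the ETS1 libraries. The genes lie head to head on opposite strands and share 96 exonic bases, 3.44% of the exons of HLA-DPB1. Whether strand was used in counting is not stated, so reads in those bases could come from either gene.

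HLA-DQB1 encodes the beta chain of HLA-DQ (chromosome 6, 32659467 to 32668383, minus strand). It ranked above HLA-DRB5 in both controls and below it in both ETS1 libraries, with 4.00 and 3.70 FPKM in the controls and 4.57 and 4.78 FPKM in the ETS1 libraries, from 794 and 803 against 1288 and 1327 reads. The groups were apart, but by a ratio of only 1.21. Its log2 change of 0.23 (limma adjusted p 0.0154) lost the threshold with no filter (adjusted p 0.0605) and without ETS1 replicate 2 (0.20, adjusted p 0.0845). Its partner HLA-DQA1, which is not a member, had 0.136 and 0.0751 FPKM in the controls and 0.221 and 0.211 FPKM in the ETS1 libraries. The beta to alpha ratio of HLA-DQ was 29.5 and 49.3 in the controls and 20.7 and 22.6 in the ETS1 libraries, so HLA-DQ, like HLA-DR, had far more beta than alpha transcript. The FPKM of HLA-DQB1 spreads its reads over a gene model of 4904 exonic bases, of which 241 are shared with an antisense gene.

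**Figure D2:**
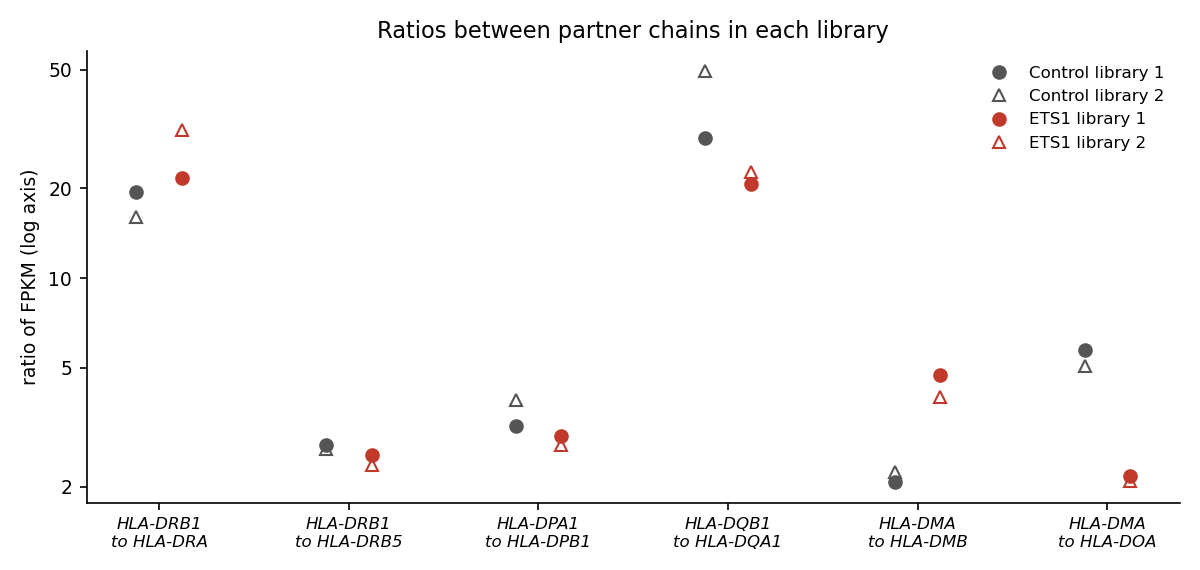
Ratio of FPKM between partner or related genes in each library on a log axis, with circles for library 1, triangles for library 2, grey for Control and red for ETS1. HLA-DMA relative to HLA-DMB is higher in both ETS1 libraries than in both controls, and HLA-DMA relative to HLA-DOA is lower in both.

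The chains of the peptide editor HLA-DM did not move alike. HLA-DMA (chromosome 6, 32948613 to 32969094, minus strand) had 1.77 and 1.74 FPKM in the controls and 3.07 and 3.14 FPKM in the ETS1 libraries, from 181 and 195 against 446 and 450 reads. Both ETS1 values lay well above the controls, and limma gave a log2 change of 0.57 (standard error 0.047, adjusted p 0.00102). HLA-DMB (chromosome 6, 32934629 to 32941070, minus strand) had 0.854 and 0.777 FPKM in the controls and 0.650 and 0.788 FPKM in the ETS1 libraries. Its groups overlapped, and at the lowered filter its log2 change was -0.079 (95% interval -0.28 to 0.12, limma adjusted p 0.421). The ratio of HLA-DMA to HLA-DMB was 2.07 and 2.24 in the controls and 4.72 and 3.98 in the ETS1 libraries. All ETS1 ratios exceeded all control ratios, and the exact two-sided p of such a split is 0.333, the smallest possible here. The annotated HLA-DMA model reaches into BRD2 on the opposite strand, sharing 55 exonic bases. BRD2 had 64.8 to 72.6 FPKM, and its part in the HLA-DMA values was not tested. Another annotated gene, AL645941.2, lies on the same strand as both chain genes. It shares 174 exonic bases with HLA-DMA (6.87%) and 438 with HLA-DMB (9.41%), and its part was not tested either.

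HLA-DOA, the alpha chain of the HLA-DM inhibitor HLA-DO and no member of the set, had 0.308 and 0.344 FPKM in the controls and 1.41 and 1.50 FPKM in the ETS1 libraries. This was a ratio of 4.47, above that of each member, and with no filter limma gave a log2 change of 0.89 and an adjusted p of 0.00929. HLA-DOB, its partner chain, had 1.21 and 1.24 FPKM in the controls and 1.07 and 1.06 FPKM in the ETS1 libraries, and its log2 change of -0.11 did not pass (limma adjusted p 0.172). The other class II genes listed, HLA-DQA2, HLA-DQB2, HLA-DPB2, HLA-DPA3, HLA-DRB6 and HLA-DRB9, were under 0.1 FPKM in every library.

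CD74, the invariant chain (chromosome 5, 150401637 to 150412929, minus strand), is usually among the most abundant transcripts of an antigen-presenting cell. Here it had 0.101 and 0.114 FPKM in the controls and 0.170 and 0.117 FPKM in the ETS1 libraries, from 13, 16, 31 and 21 reads. The groups were apart only narrowly, at Control library 2 and ETS1 library 2. With no filter limma gave a log2 change of 0.045 and an adjusted p of 0.468. HLA-DRB1 exceeded CD74 per length by 59.7 and 54.7 times in the controls and 73.3 and 100.3 times in the ETS1 libraries.

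CIITA, the coactivator (chromosome 16, 10866222 to 10943021, plus strand), was the lowest member. It had 0.00822 and 0.0132 FPKM in the controls and 0.0232 and 0.0117 FPKM in the ETS1 libraries. The smallest whole numbers that give these values are 4 and 7 reads against 16 and 8. ETS1 library 1 was highest, ETS1 library 2 lay between the controls, and with no filter limma gave 0.0096 on the log2 scale (adjusted p 0.684). A difference in CIITA was not detectable at this depth, and log2(FPKM + 1) hardly moves at such a level.

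**Figure D3:**
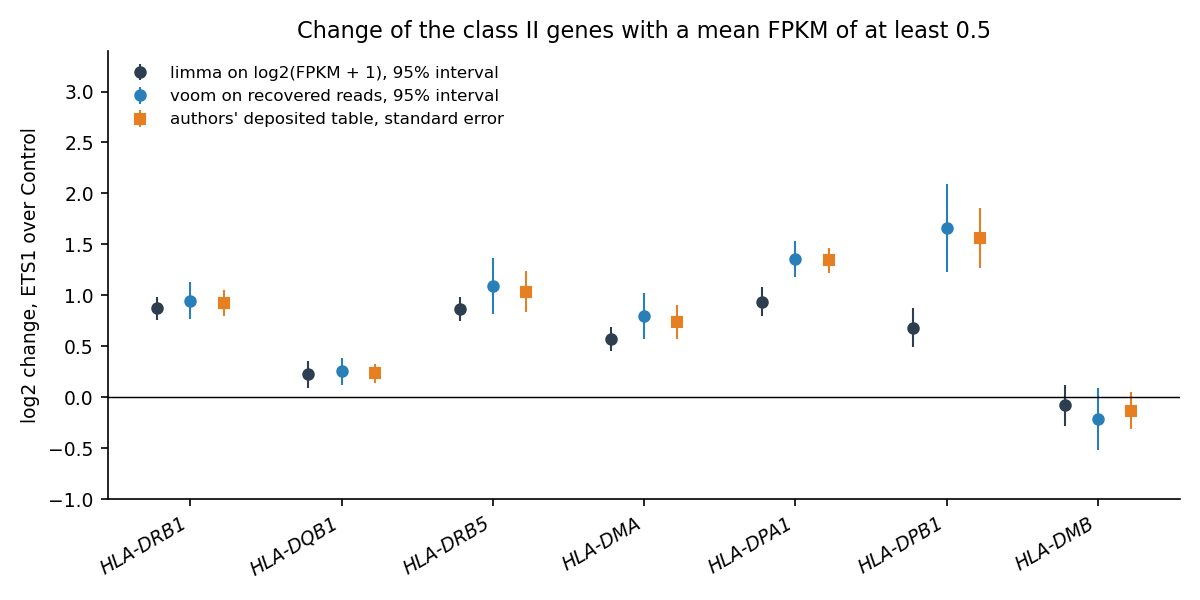
Log2 change of ETS1 over Control for the 7 members whose FPKM averaged 0.5 or more, from limma on log2(FPKM + 1) and from voom on recovered reads with 95% intervals, and from the authors' deposited table with standard errors. HLA-DPB1 moves from 0.68 to 1.66 between the first and second scale, and the limma and voom intervals of HLA-DMB include 0.

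On the scale of recovered reads, which adds no pseudocount of 1 FPKM, voom at the lowered filter gave log2 changes of 1.36 for HLA-DPA1, 1.09 for HLA-DRB5, 0.95 for HLA-DRB1, 0.79 for HLA-DMA, 0.25 for HLA-DQB1 and -0.21 for HLA-DMB. It called 6 of the 7 members in that fit higher and 0 lower, where 29.0% of genes were called higher and 29.7% lower. Limma with that filter also called 6 and 0, where 27.7% were called higher and 25.2% lower. The sixth call in both is HLA-DPB1, let in by its ETS1 values, so these counts are no support beyond the 5 called without a filter. Of 7 members listed in the authors' deposited table, 6 were higher at an adjusted p under 0.05 and 0 lower, where 25.3% of genes were higher and 25.9% lower, and HLA-DPB1 entered that table by the same limit on the mean. In the authors' deposited table HLA-DPB1 had the highest log2 fold change of the members, 1.56, and HLA-DMB had -0.13 with an adjusted p of 0.45. HLA-DPB1 thus ranked first of the members without the pseudocount and below HLA-DPA1, HLA-DRB1 and HLA-DRB5 on log2(FPKM + 1).

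Position was examined next, because all members but CD74 and CIITA lie in the class II region of chromosome 6p21. Over all tested genes limma called 30.7% higher and 28.4% lower. Of 32 neighbouring genes of other kinds, 25 were tested. Limma called 7 higher and 7 lower, near those shares, at a median of -0.03 on the log2 scale. Without ETS1 replicate 2 the calls were 3 higher and 4 lower, quantile normalization gave 11 higher, and no filter gave 4 lower. BRD2, a chromatin reader gene beside HLA-DMA, rose by 0.14 (limma adjusted p 0.0112) and lost the threshold without ETS1 replicate 1 (0.12, adjusted p 0.078) or ETS1 replicate 2 (0.15, adjusted p 0.0539). TAP1 and TAP2, the peptide transporter genes between HLA-DOB and HLA-DMB, had -0.0038 and -0.086 and did not pass. The largest changes lay farther out, at HSD17B8 (-0.67), a short-chain dehydrogenase gene, KIFC1 (0.51), a mitotic kinesin gene, and VPS52 (0.47), a vesicle tethering gene, with limma adjusted p-values of at most 0.00102. Along the chromosome HLA-DOB and HLA-DMB, which did not pass, lie between HLA-DQB1 and HLA-DMA, which rose.

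**Figure D4:**
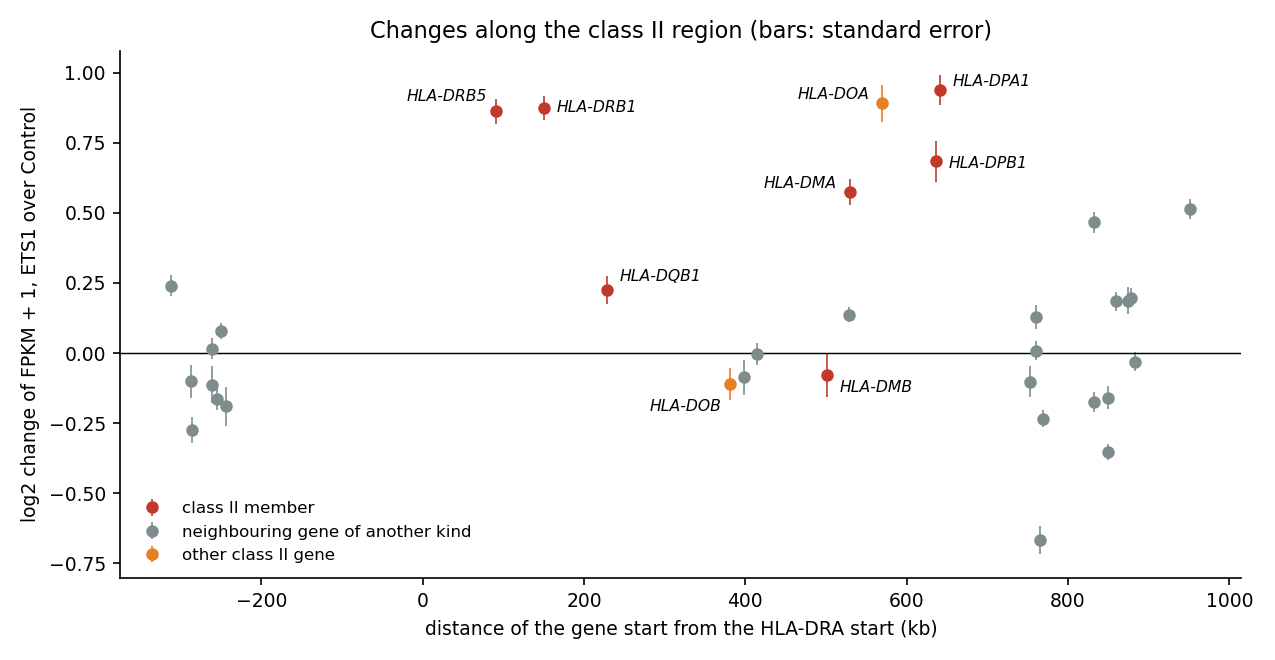
Log2 change of FPKM + 1 against the distance of each gene start from the start of HLA-DRA, for genes whose FPKM averaged 0.5 or more, with bars for the standard error. Class II members are red, other class II genes orange and neighbouring genes grey. HLA-DRB5, HLA-DRB1, HLA-DOA, HLA-DPA1, HLA-DPB1 and HLA-DMA lie above 0.5, while HLA-DOB, HLA-DMB, TAP1 and TAP2 lie near or just below 0. HLA-DOA and HLA-DPB1 are shown only because their ETS1 values lifted their means, as their control means were 0.326 and 0.378 FPKM.

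The proteins that carry CIITA to class II promoters were expressed throughout. Of all tested genes, limma called 30.7% higher and 28.4% lower. All 8 genes of the list of these proteins were tested, with 5 called higher and 1 lower at a median of 0.16. Without ETS1 replicate 2, 2 were called higher. NFYA, which contacts the CCAAT letters of the Y box, went from 9.61 and 9.36 to 13.9 and 12.2 FPKM (log2 change 0.42, limma adjusted p 0.00513). NFYC, another NF-Y subunit, fell by 0.29 on the log2 scale (limma adjusted p 0.00366). RFXAP, an RFX subunit gene, rose by 0.26 (limma adjusted p 0.0078). RFX5, of the same complex, had 23.1 and 22.9 FPKM in the controls and 25.1 and 24.6 FPKM in the ETS1 libraries (0.11, limma adjusted p 0.0258), but leaving out any 1 library ended the call (adjusted p 0.0548 to 0.163), as did the replicate block (adjusted p 0.0656), voom at the lowered filter (adjusted p 0.0521) and the authors' deposited table (adjusted p 0.123). RFXANK and NFYB did not pass, at -0.031 and 0.011.

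Among factors known to act on the CIITA promoters, 5 of 10 were tested and 3 were called higher. Over all tested genes 30.7% were called higher and 28.4% lower. IRF1, an interferon-induced factor that acts at CIITA, went from 1.41 and 1.62 to 2.18 and 2.28 FPKM (0.36, limma adjusted p 0.00837). EZH2, a histone methyltransferase associated with silencing, rose by 0.16 (limma adjusted p 0.0126), and lost the threshold without ETS1 replicate 1 (0.13, adjusted p 0.0784). In the interferon-gamma list, 3 of 6 tested genes were called higher and 1 lower, the latter lost with no filter and without either ETS1 replicate. JAK1 rose by 0.46 and PTPN11 by 0.43 on the log2 scale (limma adjusted p 0.000633 and 0.000981), and the receptor genes IFNGR1 (-0.013) and IFNGR2 (0.047) did not pass. IFNG, the cytokine gene, was listed at 0 in all 4 libraries.

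Of 15 genes of the endosomal route, 11 were tested, with 6 called higher (3 without ETS1 replicate 2) and 2 lower and a median of 0.10. For comparison, limma called 30.7% of all tested genes higher and 28.4% lower. CTSV, a cathepsin that can process the invariant chain, rose by 0.49, and CTSF, another cathepsin of that route, by 0.42. SPPL2A, the protease that cuts the last membrane stub of CD74, fell by 0.35, and its limma adjusted p was 0.00127. CTSS, the main invariant chain protease of antigen-presenting cells, had 0.139 to 0.227 FPKM, and IFI30, the lysosomal thiol reductase, at most 0.043 FPKM. The other genes of this list under the filter were MARCH1 (0.356 to 0.595 FPKM) and CD82 (0.319 to 0.418 FPKM).

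Of 6 partners of CD74, 1 was tested and 0 were called, where limma called 30.7% of all tested genes higher and 28.4% lower. CD44, a co-receptor for signals through CD74, had 0.0320 and 0.0359 FPKM in the controls and 0.416 and 0.383 FPKM in the ETS1 libraries, from 13 and 16 against 240 and 218 reads. This ratio of 11.7 exceeded those of the members. With no filter limma gave CD44 a log2 change of 0.44 and an adjusted p of 0.0092. CXCR4, another partner of CD74, had 3.66 to 4.39 FPKM and did not pass (0.14, limma adjusted p 0.0699), and MIF, the ligand of CD74, was listed at 0.558 to 0.775 FPKM. Of the molecules that a T cell reads beside class II, 4 of 9 were tested and 3 were called higher, or 1 without ETS1 replicate 1. CD83 rose by 0.43, TNFSF9 by 0.28 and CD40 by 0.22 on the log2 scale (limma adjusted p 0.00697, 0.0209 and 0.0162). TNFSF9 lost the threshold without ETS1 replicate 1 (0.20, adjusted p 0.0678) or Control replicate 1 (0.24, adjusted p 0.0669), with no filter (adjusted p 0.0917) and with quantile normalization (adjusted p 0.0577). CD40 lost it without ETS1 replicate 1 (0.17, adjusted p 0.0821) or Control replicate 2 (0.20, adjusted p 0.0534), with no filter (adjusted p 0.0642) and in the authors' deposited table (adjusted p 0.0769). CD80 and CD86, the main costimulators, were under 0.1 FPKM in every library. ICAM1, an adhesion molecule, went from 0.047 and 0.079 to 0.282 and 0.219 FPKM (no filter, limma adjusted p 0.0366). ICOSLG, of the same list, fell from 0.612 and 0.688 to 0.373 and 0.446 FPKM (no filter, -0.23, limma adjusted p 0.091).

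Class I genes use the same promoter module through NLRC5 and gave a point of comparison. Limma called 30.7% of all tested genes higher and 28.4% lower. Of 9 tested genes of this list it called 5 higher and 1 lower, with a median of 0.18. With no filter, without ETS1 replicate 1 or without ETS1 replicate 2, 3 were called higher, and voom at the lowered filter called 2 lower. HLA-B rose by 0.34 and HLA-F by 0.33, below HLA-DRB1, HLA-DRB5, HLA-DPA1 and HLA-DMA, and B2M, the light chain of class I, fell by 0.39 (limma adjusted p 0.000789). NLRC5 had 0.208 and 0.200 FPKM in the controls and 0.316 and 0.313 FPKM in the ETS1 libraries, with no call under no filter (limma adjusted p 0.0755). No test compared the class II changes with the class I changes.

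**Figure D5:**
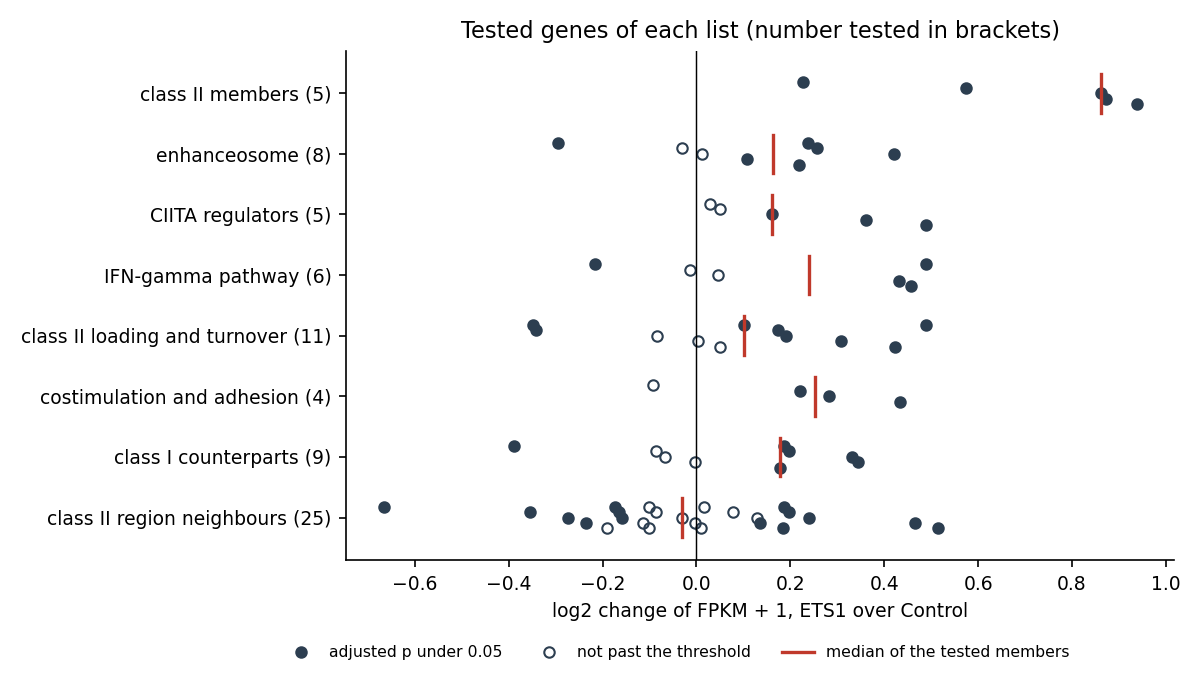
Log2 change of FPKM + 1 for each tested gene of 8 lists, with filled points for an adjusted p under 0.05, open points otherwise, and a red line at the list median. The 5 tested class II members have a median of 0.86, and the medians of the other lists shown lie between -0.03 and 0.25.

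Markers of professional antigen-presenting cells and other leukocytes were looked at, since class II transcripts can come from such cells. Of 22 markers, 13 were under 0.1 FPKM in every library and 20 were under 1 FPKM. Their summed FPKM was 3.38 and 4.27 in the controls and 4.50 and 4.96 in the ETS1 libraries. PTPRC, the pan-leukocyte marker, was at most 0.0117 FPKM, and CD1C and MS4A1 were listed at 0. NKG7 had 1.16 to 1.76 FPKM and did not pass. Of 11 fibroblast and endothelial markers 10 were matched, and COL1A1 was the only one tested (0.30, limma adjusted p 0.00599). Their summed FPKM was 2.40 and 2.23 in the controls and 3.24 and 3.36 in the ETS1 libraries. Of 12 epithelial and squamous markers, 6 were under 0.1 FPKM in every library, among them KRT5, KRT14 and TP63, so these defining squamous genes were nearly absent. DSP (10.9 to 13.1 FPKM), KRT18 (8.29 to 10.5 FPKM) and KRT8 (3.87 to 6.59 FPKM) had the highest levels of the list. EPCAM had 1.37 and 1.36 FPKM in the controls and 0.915 and 1.12 FPKM in the ETS1 libraries, and did not pass (-0.23, limma adjusted p 0.0525). CDH1, under the filter, had 0.571 and 0.567 FPKM in the controls against 1.08 and 0.916 FPKM in the ETS1 libraries. KRT19 was at most 0.0224 and KRT7 at most 0.0469 FPKM. The summed FPKM of this list was 29.7 and 30.4 in the controls and 33.3 and 33.9 in the ETS1 libraries, with KRT8 (0.62), SOX2 (0.25) and DSP (0.23) called higher and KRT18 (-0.29) lower. SOX2 lost the threshold without ETS1 replicate 1 (0.30, adjusted p 0.0543), ETS1 replicate 2 (0.21, adjusted p 0.13) or Control replicate 1 (0.18, adjusted p 0.0792), with no filter (adjusted p 0.112), with quantile normalization (adjusted p 0.0512) and in the authors' deposited table (adjusted p 0.0688).

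The tested genes whose 4 values most resembled the mean profile of the 5 tested members were FHAD1, TRAF3IP1, IAH1, IFITM2 and C2orf72. Likeness was the Euclidean distance between log2(FPKM + 1) values centred on their mean over the 4 libraries, and it ran from 0.018 for FHAD1 to 0.028 for C2orf72. IFITM2, an interferon-induced membrane protein gene, had 10.5 and 10.1 FPKM in the controls and 17.1 and 17.2 FPKM in the ETS1 libraries. With 4 libraries in 2 groups, likeness rests on few values.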

How the data were processed

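RNA-seq of 4 TE5 libraries was used, 2 per group. HISAT2, HTSeq, DESeq2 and the builds hg38 and GRCh38 are named in the submitters' processing notes. Versions, annotation and strand setting are not given in the sources used here. The authors computed the deposited FPKM values. The authors' comparison table holds the 16652 genes whose FPKM averaged 0.5 or more, with a mean normalized count (a signal averaged by the authors), log2 fold changes and p-values with adjusted p-values, all as deposited per the file headers.

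FPKM was taken as log2(FPKM + 1), filtered at a mean of at least 1 and fitted with limma 3.58.1 in R 4.3.3 with a group term and an intensity trend. This kept 14306 genes (25.7%), with 2 residual and 2.84 prior degrees of freedom. P-values are two-sided and Benjamini-Hochberg adjusted. A count test had been planned for raw counts only, and the values were FPKM. Reads were recovered from FPKM, the mean normalized count and fitted library scales, and 98.7% of values fell within 0.05 of a whole number (10% by chance). For genes outside the comparison table the smallest whole multiples were taken. Recovery is an inference, so voom on those reads is an alternative. Depth limits precision for members with few reads. Steps were tested on simulated data.

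The other alternatives were a pseudocount of 0.1, other filters, trimmed-mean scaling, quantile normalization, a replicate block, leaving out each library, and the authors' values. The members and the 13 lists were chosen with earlier results of these data known. Named genes were all members, ETS1, the 3 largest changes in each list (all tested genes where fewer than 3 were), any gene of a list of 10 or fewer, and the 5 nearest profiles. Other genes are named after their values were seen, as defining markers, neighbours or partners of the members. Coordinates are from GENCODE 29 and promoters from RefSeq on GRCh38.p14. Results for some genes of the lists are not reported here.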

Additional observations from a re-analysis of the deposited data

How the results depend on the processing

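The counts of class II members called were 5 higher and 0 lower in limma, and over all alternatives they ran from 4 to 6 higher with 0 lower. HLA-DRB1, HLA-DRB5, HLA-DPA1 and HLA-DMA were called higher in 13 of 13 alternatives and HLA-DQB1 in 11 of 13. HLA-DQB1 lost the threshold with no filter and without ETS1 replicate 2, which left 4 members called. HLA-DPB1 was called higher with no filter (adjusted p 0.0153), and the other fits tested it only because its ETS1 values lifted its mean. HLA-DMB was called in 0 of 4 fits, with adjusted p-values from 0.217 to 0.524. Over all genes limma called 4394 higher and 4057 lower. Leaving out a library gave 2845 to 3962 higher and 2945 to 3720 lower, the fewest higher (2845) without ETS1 replicate 2. The replicate block, which pairs libraries by number, called 3712 higher and 3571 lower and changed no member's call. The deviations of same-numbered libraries had a correlation of -0.046 across genes, so the numbers were not taken to pair them. Genes near 0 changed sign without passing the threshold either way. NKG7 went from 0.014 to -0.029 with quantile normalization, -0.017 with voom and -0.023 with voom at the lowered filter, and ran from -0.16 to 0.19 when a library was left out. NFYB went to -0.0077 with trimmed-mean scaling, -0.011 with voom, -0.015 with voom at the lowered filter and -0.011 in the authors' deposited table, and ran from -0.0090 to 0.031 when a library was left out. RFXANK went to 0.025 and IFNGR1 to 0.10 with quantile normalization. With a library left out, IFNGR1 ran from -0.051 to 0.025 and TAP1 from -0.024 to 0.016. The cause of these differences was not tested. Of 624 values of the 48 named genes tested, 583 kept their direction and side of the threshold, 26 lost the threshold and 15 changed sign. Members with few reads (CIITA, CD74 and HLA-DRA) could be tested only with no filter.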
